A study of Mus musculus with 21 samples.

Results

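The regions described here are stretches of chromatin that were open in uninduced endothelial progenitors (EPC) of differentiating mouse embryonic stem cells and had no called peak once Sox7 was switched on. Peaks of the 8 ATAC-seq lists were merged where they overlapped by 1 bp, which gave 51264 regions. A region was kept if both uninduced EPC lists held a peak there and neither induced EPC list did. This left 935 regions, 1.82% of all regions, and they are called lost regions below. Leaving out 1 of the 4 EPC lists drops 1 condition of the rule, so a higher count follows by construction. Those counts were 1638 to 4048 regions, the most without uninduced replicate 2. The same rule with the induced and uninduced EPC lists exchanged gave 3139 gained regions (6.12%). The regions were chosen by the peak calls of the 4 EPC lists, so the EPC values below describe them and are not tested.

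All cells were A2lox-Sox7-Myc, a mouse embryonic stem cell line derived from E14Tg2a that carries a doxycycline-inducible gene for Myc-tagged Sox7. They were grown as embryoid bodies, floating aggregates in which mesoderm forms, and taken at day 4. Uninduced groups carry the same transgene and received no doxycycline, and induced groups received 1 µg/ml for 24 h. EPC were sorted as PDGFRα-FLK1+ and cardiac progenitors (CPC) as PDGFRα+FLK1+, with 2 uninduced and 2 induced ATAC-seq libraries of each. The growth protocol names a PDGFRα+FLK1- sort in addition, which differs from the sample characteristics, and groups follow the characteristics. Anti-Myc ChIP-seq of unsorted embryoid bodies has 4 uninduced and 4 induced lists, with 1 uninduced input list. All groups come from 1 line, and no group used here received doxycycline without carrying the transgene, so doxycycline and Sox7 cannot be told apart. The labels do not say whether replicates were separate cultures, or whether EPC and CPC came from the same embryoid bodies, and the p-values therefore reflect no more than how far these samples scatter, part of which may be technical.

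ATAC-seq marks DNA that a transposase can reach, which in most cells means active promoters and enhancers bound by transcription factors. SOX7 belongs to the SOXF group of HMG-box factors, which act in the specification of endothelium from FLK1+ mesoderm, the same pool that feeds the heart. Closing of enhancers accompanies the choice of one fate over another, and distal elements differ between cell types far more than promoters do.

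The deposited values are peak calls with a score for each peak, so the number of reads behind a call is unknown. The score is the authors' own value for a peak, in the MACS 1.4 format minus 10 times the log10 of its p-value, and the lowest score in the ATAC lists was about 50. The uninduced EPC lists held 27934 and 23694 peaks and the induced EPC lists 28915 and 30732. The CPC lists held 27540 and 23068 peaks without induction and 29291 and 27979 with it. A missing peak can come from a shallower library, from fewer cells with the site open or from less opening per cell, and these cannot be told apart here. As a check of the sorted populations, 10 of 29 endothelial genes and 3 of 25 cardiac genes had a region in all 4 EPC and no CPC list, against 1 of 29 and 5 of 25 with a region in all 4 CPC and no EPC list. Of 21 blood genes, 8 had such an EPC region and 2 such a CPC region. The check therefore did not set endothelial genes apart from blood genes. A region at Sox7 itself, chr14:63947488-63948950, had a peak in both induced EPC lists, with scores of 170 and 210, and in neither uninduced one. DNA of the transgene and of the gene itself cannot be told apart there.

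Few lost regions lay at gene starts, and 5 of those starts are shown here with the 250 bases before them, from the RefSeq promoter table of GRCm38.p6. They are examples picked by their sequence and are not a typical set: 3 hold the AP-1 letters TGANTCA, 1 holds the SOX letters AACAAT, and 1 is rich in CpG. Of all 52 promoter windows whose start fell inside a lost region, 9 held the AP-1 letters and 2 the SOX letters. Capitals mark every match to the searched letters on either strand, so that TTATCT stands for the GATA letters AGATAA read on the other strand. Lrtm1, whose start lies inside the calcium channel gene Cacna2d3, is on the plus strand and its stretch is chr14:29017958-29018207. Cd68, a lysosomal protein of macrophages, is on the minus strand at chr11:69666171-69666420. Slc24a5, a cation exchanger of pigment cells, is on the plus strand at chr2:125067877-125068126. Cavin2, a coat protein of caveolae, is on the plus strand at chr1:51288876-51289125, and Cuedc1 is on the plus strand at chr11:88098896-88099145.
Lrtm1: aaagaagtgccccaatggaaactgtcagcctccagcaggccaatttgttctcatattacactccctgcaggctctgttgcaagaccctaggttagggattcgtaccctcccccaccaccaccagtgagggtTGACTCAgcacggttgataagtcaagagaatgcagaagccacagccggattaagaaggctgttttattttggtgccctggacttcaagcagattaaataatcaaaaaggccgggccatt
Cd68: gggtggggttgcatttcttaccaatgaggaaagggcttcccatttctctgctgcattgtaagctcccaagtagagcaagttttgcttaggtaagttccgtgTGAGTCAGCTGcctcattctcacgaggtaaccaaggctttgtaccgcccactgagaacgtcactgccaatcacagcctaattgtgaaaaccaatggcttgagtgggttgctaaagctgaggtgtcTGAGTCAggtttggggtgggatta
Slc24a5: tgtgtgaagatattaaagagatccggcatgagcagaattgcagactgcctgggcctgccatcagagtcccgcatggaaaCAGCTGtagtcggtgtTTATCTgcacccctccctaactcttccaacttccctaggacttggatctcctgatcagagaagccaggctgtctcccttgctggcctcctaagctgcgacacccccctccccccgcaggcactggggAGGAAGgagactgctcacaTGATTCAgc
Cavin2: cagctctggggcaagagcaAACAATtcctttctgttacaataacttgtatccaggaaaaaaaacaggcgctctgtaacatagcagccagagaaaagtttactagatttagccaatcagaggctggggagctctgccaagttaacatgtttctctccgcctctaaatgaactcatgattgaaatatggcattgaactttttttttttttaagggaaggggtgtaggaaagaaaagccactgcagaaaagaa
Cuedc1: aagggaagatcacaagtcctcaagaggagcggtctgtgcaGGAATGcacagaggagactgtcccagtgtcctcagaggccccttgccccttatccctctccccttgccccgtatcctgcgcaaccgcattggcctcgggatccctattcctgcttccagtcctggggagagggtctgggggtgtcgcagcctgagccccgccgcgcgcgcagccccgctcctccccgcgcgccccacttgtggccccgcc
The AP-1 letters occur 1 time in the Lrtm1 and Slc24a5 stretches and 2 times in the Cd68 stretch, where the first match runs into an E-box (CAGCTG). In the 300 bases of the promoter window, Cuedc1 held 22 CpG pairs, against 4 each in Lrtm1, Cd68 and Cavin2 and 6 in Slc24a5.

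The lost regions were weak peaks to begin with. In uninduced EPC replicate 1 their scores ran from 50 to 392, with quartiles of 60.8, 77.4 and 104, where the median of the whole list was 161. In replicate 2 they ran from 50.0 to 286, with quartiles of 58.5, 68.0 and 87.0, where the median of the whole list was 138. The median lost region therefore stood at percentile 24.1 of the first list and 19.7 of the second. A score of 100 or more was reached by 254 lost regions (27.2%) in replicate 1 and by 135 (14.4%) in replicate 2, by 69 in both, and a score of 200 or more in both by 3. Regions with a peak in all 4 EPC lists, called kept regions below (17298), had median scores of 338 and 207 in the same lists. The 1600 regions with a peak in both uninduced lists and in 1 induced list lay between, at 92.1 and 75.3. Widths followed the same order. Medians were 871 bp for lost regions, 973.5 bp for those with 1 induced peak and 1363 bp for kept regions. A merged region spans the peaks of every ATAC list that overlap there, so each further list with a peak can only widen it. Among lost regions the median width was 812 bp with no CPC peak and 1063 bp with a peak in all 4 CPC lists. Width is therefore no separate sign of weak peaks, and how much of its order comes from the merging was not tested.

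**Figure D1:**
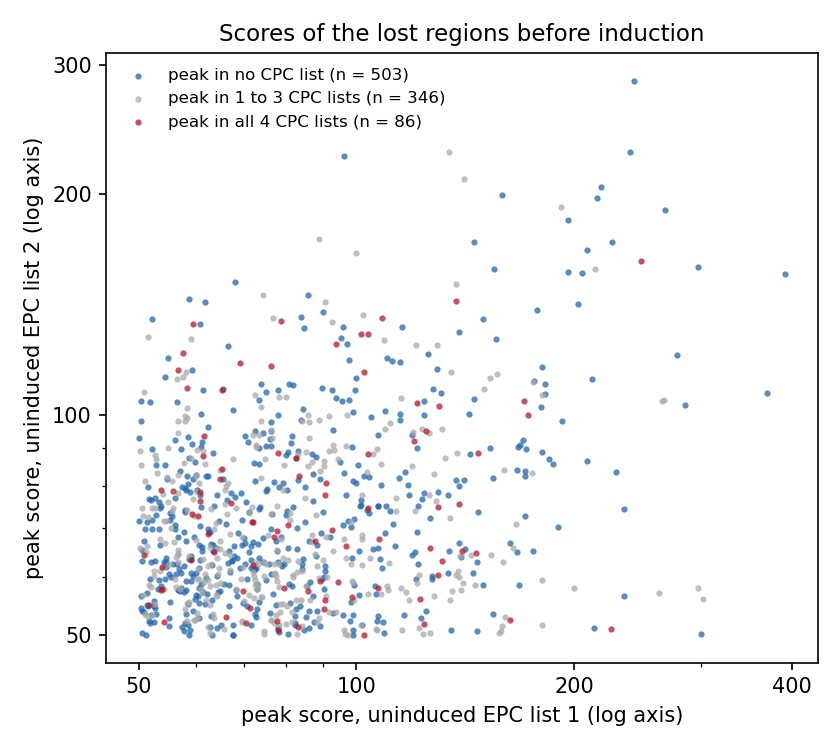
Peak scores of the lost regions in the 2 uninduced EPC libraries (MACS score, log axes), marked by a peak in no, some or all CPC lists. Medians of lost regions are 77.4 and 68.0. Those of kept regions, which are not drawn, are 338 and 207.

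The replicates ordered the lost regions only loosely. Replicate 1 gave the higher score at 558 of the 935 (59.7%), and across regions, which are not independent replicates, the log scores had a Pearson r of 0.30 and a Spearman rho of 0.19. Of the 19833 regions with a peak in both uninduced EPC lists, 4.71% were lost, and this share depended steeply on the score that the rule also depends on. It was 26.7% where the mean uninduced score was 50 to 75, 13.1% at 75 to 100, 4.71% at 100 to 150, 1.26% at 150 to 200 and 0.0838% at 200 or more, which are 476, 275, 149, 26 and 9 lost regions.

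At the edge of the rule, calls turned on small differences. Of the lost regions of lowest score, 1 lay 10.5 kb from Pparg, the adipocyte nuclear receptor (51.9 and 52.0). The others lay 0.383 kb from Zscan25 (51.2 and 50.1) and inside Zfp407 (50.5 and 50.3), both zinc finger genes. Just outside the rule, a region near Bank1, a B cell scaffold gene, scored 150 and 93.4 without induction and stayed out because 1 induced list held a peak of 50.0. Regions inside Golga3 (55.5 and 52.7) and Tmem132d (70.0 and 56.8) stayed out through single induced peaks of 50.0 and 50.1.

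The strongest lost region lay at chr10:120685780-120686760, with scores of 242 and 286 and no protein-coding gene within 50 kb. Inside Cdkal1, which encodes a tRNA-modifying enzyme, the region chr13:29458049-29459075 scored 239 and 228. A region 42.9 kb from Fer, a cytoplasmic tyrosine kinase gene, scored 392 and 156 (chr17:63818242-63819200). Inside Spns2, the sphingosine-1-phosphate exporter of endothelium, the region chr11:72457831-72459033 scored 267 and 190, and an induced EPC peak lay 1652 bp away. Regions 2.61 kb from Xirp2, an actin-binding protein of striated muscle, and 27.1 kb from Sim2, a bHLH-PAS factor, scored 218 and 204, and 215 and 198. Of the 10 leading lost regions, 8 had no peak in any CPC list.

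Among the 10, the region with the highest CPC scores lay 23.2 kb from Aplnr, the receptor for apelin on vascular and cardiac progenitors (chr2:85163124-85164239). It scored 247 and 162 in uninduced EPC. In CPC it had a peak in all 4 lists, at 305 and 218 without induction and at 82.3 and 70.7 with it, so that both induced CPC scores were below both uninduced ones. A merged region at chr2:85160079-85162300, whose edge lay 824 bp away, was gained in EPC, with scores of 123 and 144 in the induced lists. That merged region also holds CPC peaks, and the nearest induced EPC peak lay 1955 bp from the lost region.

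Endothelial genes with a lost region were Cdh5, Flt1, Fli1 and Aplnr, 4 of the 29 on the list, where 726 of all 21883 protein-coding genes (3.32%) had one. Fli1, an ETS factor of endothelium and blood, had 2. The region at its boundary, chr9:32542838-32543797, scored 139 and 79.9, and the region 38.2 kb away, chr9:32581678-32582866, scored 181 and 116. Neither had a peak in any CPC list, and 2 of the 7 regions assigned to Fli1 were kept in EPC. Inside Flt1, a VEGF receptor that binds ligand without strong signalling, the region chr5:147721086-147721931 scored 96.9 and 77.7. Inside Cdh5, the cadherin of endothelial junctions, the region chr8:104110536-104111344 scored 60.5 and 66.5. Both lacked a CPC peak as well, and 4 of 8 regions of Cdh5 and 4 of 11 of Aplnr were kept.

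Cardiac genes had a lost region at 5 of 25: Gata4, Hand1 and Mef2c, which encode cardiac transcription factors, and Myl7 and Actc1, which encode an atrial myosin light chain and cardiac α-actin. The region 4.2 kb from Actc1, chr2:114057075-114058279, scored 76.2 and 116 in uninduced EPC. In CPC it scored 462 and 165 without induction and 219 and 199 with it, so the CPC groups overlapped. The region inside Gata4, chr14:63255413-63256473, scored 102 and 50.0 in EPC. Its CPC scores were 128 and 64.9 without induction and 79.1 and 146 with it, which overlap too. The region inside Mef2c (chr13:83654796-83655637, 89.2 and 51.5) had no CPC peak. Nor did the regions 3.2 kb from Myl7 (chr11:5892559-5893437, 109 and 50.4) and 36.7 kb from Hand1 (chr11:57868837-57869449, 50.6 and 65.4). None of the 4 regions assigned to Actc1 and none of the 2 assigned to Myl7 was kept in EPC, against 6 of 11 at Mef2c and 1 of 9 at Gata4.

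Other developmental genes had single lost regions. Gsc, a homeobox gene of the organizer and early mesoderm, was the 1 gene of 18 on the early mesoderm list, with scores of 57.6 and 121 in EPC and of 173, 117, 145 and 73.9 in CPC, the first 2 uninduced. Cbfa2t3, a corepressor of blood progenitors, was the 1 of 21 blood genes, with scores of 120 and 94.8. Lin28a and Otx2 were 2 of 18 pluripotency genes, Gata4 and Col4a1 2 of 23 endoderm genes, and Cald1 and Tpm2, which regulate actin filaments, 2 of 14 smooth muscle genes. Flt1 and Aplnr were 2 of 28 genes of VEGF signalling and vessel guidance. Sox5 was the 1 of 19 SOX genes, Tead4 the 1 of 18 Hippo genes, and Axin2, a feedback inhibitor of Wnt signalling, the 1 of 29 Wnt genes. No lost region was assigned to any of the 18 Notch, 29 BMP and TGF-beta, 16 neural or 18 ubiquitously used genes. Genes with more regions have more chances to hold a lost one: the median number of ATAC regions was 5 for genes with a lost region and 1 for all protein-coding genes, so these counts were not tested.

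Most genes with a lost region had only 1. Of the 726, 670 had 1, 51 had 2 and 5 had 3 or more. Gm7592 had 6, between chr1:85328149 and chr1:85555941, and 2 of those 6 lay on peaks of the input list. Hrh1, a histamine receptor, Negr1, a neuronal adhesion protein, Ptprn2, a phosphatase-like protein of secretory granules, and Tbl1xr1, a corepressor subunit, had 3 each. Those of Hrh1 lay outside the gene, at 10.2, 39.6 and 49.2 kb, and the nearest of them lay on an input peak. A kept region was also assigned to 530 of the 726 (73.0%). The same share over all protein-coding genes was not computed, so 73.0% is a description only. A gained region was assigned to 177 of the 726 (24.4%, and 8.53% of the genes with a gained region), against 9.49% of all protein-coding genes, and 160 had neither. The gene-level counts share the difference in regions per gene given above.

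Lost regions were mainly distal. Of the 935, 494 (52.8%, 95% Clopper-Pearson interval 49.6 to 56.1) overlapped a protein-coding gene, 273 (29.2%) lay within 50 kb of one and 168 (18.0%) had none that near. Kept regions overlapped a gene in 76.3% and all ATAC regions in 59.6%. A gene boundary lay within 1 kb of 101 lost regions (10.8%, interval 8.88 to 13.0), against 20.2% of regions with 1 induced peak, 54.7% of kept regions and 26.7% of all regions. A gene start fell inside 45 (4.81%), against 11.7%, 46.0% and 19.5%. Among kept regions weaker peaks were more often distal, so the classes were set side by side at matched scores. At a mean uninduced score of 50 to 75, 11.3% of lost and 25.4% of kept regions lay within 1 kb of a boundary, at 75 to 100 12.4% and 29.0%, and at 100 to 150 8.05% and 37.5%. The intervals cover counting error only.

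**Figure D2:**
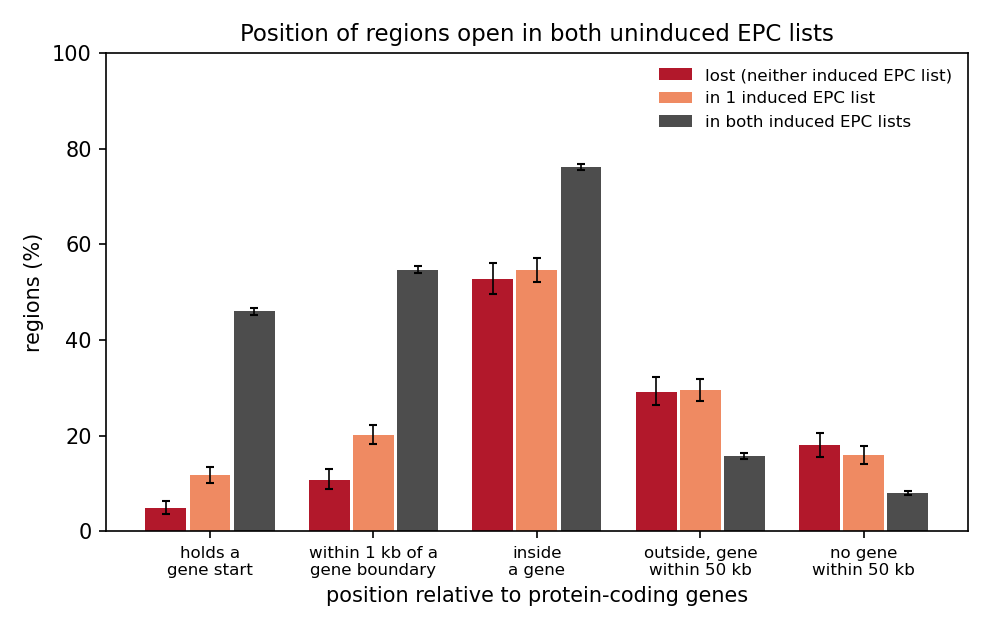
Percent of lost regions, regions with a peak in 1 induced list and kept regions by position relative to protein-coding genes. Positions are holding a gene start, within 1 kb of a boundary, inside a gene, outside with a gene within 50 kb, and no gene within 50 kb. Lost regions have the lowest value for gene start, boundary and inside a gene, with 10.8% within 1 kb of a boundary against 54.7% of kept regions. With no gene within 50 kb they have the highest, 18.0% against 15.9% and 8.05%.

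The nearest induced EPC peak lay at a median of 15.6 kb, within 500 bp of 40 lost regions, within 1 kb of 77 (8.24%), within 10 kb of 391 and within 50 kb of 737. A gained region lay within 10 kb of 44 (4.71%), at a median distance of 221 kb, and a kept region within 10 kb of 259 (27.7%), at a median of 30.8 kb. Of all ATAC regions 10.8% lay within 10 kb of a gained and 50.0% within 10 kb of a kept region, shares that count the gained and kept regions themselves. Without those the shares were 4.98% of the 48125 regions that were not gained and 24.5% of the 33966 that were not kept, close to the values of lost regions.

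The starts held by lost regions with the strongest peaks were those of Lrtm1, Gsdme (a pore-forming gasdermin), Cuedc1, Gpr25 (an orphan receptor), Aqp8 (a water channel), Tdo2 (a tryptophan-degrading enzyme of liver), Aatk (a kinase of neurons), Ttc30a2 (a ciliary transport protein), Cd68 and Sh3tc1. At Gpr25 the region chr1:136259683-136260928 scored 146 and 64.7 in uninduced EPC, and in CPC 149 and 85.8 without induction and 165 and 109 with it. At Lrtm1 the region chr14:29017591-29018562 scored 130 and 103, and in CPC 209 and 60.8 against 137 and 51.9. Gsdme had 78.8 and 134, and in CPC 194 and 101 against 93.6 and 54.2, so that both induced CPC scores were lower. Aqp8, Ttc30a2, Cd68 and Sh3tc1 had no peak in any CPC list.

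The starts of 52 promoter windows, of 48 genes, fell inside lost regions. Each window runs from 250 bases before a start to 50 after it. The median window held 8 CpG pairs, against 18 at regions with 1 induced peak, 22 at kept regions and 13 over the whole table, and its GC content was 57.0%, against 62.3% at kept regions and 56.3% over the table. The AP-1 letters TGANTCA were in 9 of the 52 windows (17.3%), in 3.65% of windows at kept regions and in 6.99% of all windows. Some windows overlap, and 2 of the 9 are windows of Prxl2a that hold the same match. With overlapping windows counted once, the AP-1 letters were in 8 of 48 (16.7%), against 3.68% at kept regions and 7.22% over the table. That share rested on the exact set of regions: it was 7.98% when uninduced EPC replicate 2 was left out, 4.76% (2 of 42) when only peaks of score 100 or more were used, and 8.70% to 10.4% with another EPC library left out or with lists of equal length. The E-box CAGCTG was in 26.9%, 13.9% and 15.6%, the ETS letters AGGAAG in 40.4%, 31.2% and 34.4%, and the GATA letters AGATAA in 11.5%, 5.23% and 9.65%, in the same order. The TEAD letters GGAATG were in 11.5%, 10.96% and 13.6%, the forkhead letters GTAAACA in 1.92%, 2.36% and 3.01%, and the SOX letters AACAAT in 3.85%, 4.90% and 9.05%. The SOX letters were in 2 windows, at Cavin2, shown above, and at Itpkb, an inositol phosphate kinase. Both strands were searched, an AP-1 match may overlap an E-box match as it does at Cd68, and a match describes letters, not a bound site. The windows stand for the few lost regions at gene starts and not for the distal majority, whose sequences were not used here.

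The CPC lists took no part in choosing the regions. Of the 935 lost regions, 503 (53.8%, interval 50.5 to 57.0) had no peak in any CPC list and 432 (46.2%, interval 43.0 to 49.5) had at least 1. A peak in at least 1 CPC list was found at 69.4% of regions with 1 induced EPC peak, at 93.8% of kept regions and at 76.4% of all regions. Of the lost regions 169 had a peak in 1 CPC list, 102 in 2, 75 in 3 and 86 in all 4 (9.20%, interval 7.42 to 11.2), where the last share was 21.1% with 1 induced EPC peak and 75.7% at kept regions. Among kept regions weaker EPC peaks had a CPC peak less often, so the classes were set side by side at matched mean uninduced EPC scores. At 50 to 75 a CPC peak was found at 46.4% of lost, 72.6% of 1-induced-peak and 79.7% of kept regions. At 75 to 100 the shares were 48.7%, 68.6% and 83.9%, at 100 to 150 they were 45.0%, 70.1% and 89.5%, and at 150 to 200, with 26 lost regions, 34.6%, 55.4% and 92.6%. At 200 or more only 9 regions were lost, 11.1% with a CPC peak, which is too few to read a trend from. Across the first 3 score ranges the share for lost regions stayed between 45.0% and 48.7%.

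**Figure D3:**
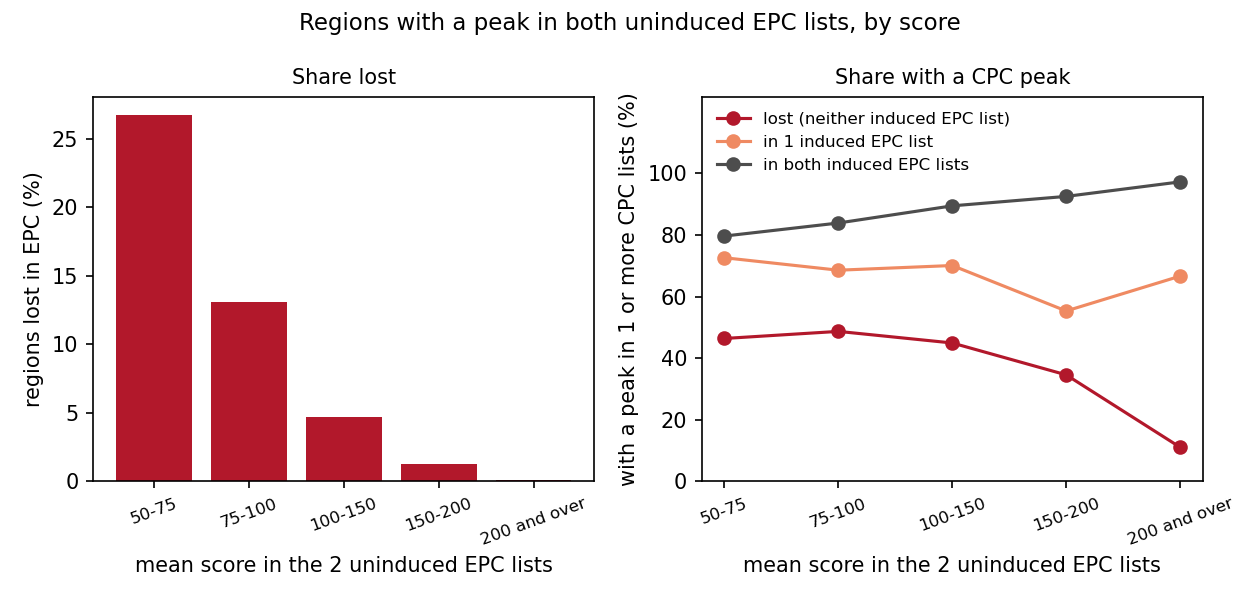
By mean uninduced EPC score: percent of regions lost, and percent with a peak in at least 1 CPC list for lost regions, regions with 1 induced peak and kept regions. The percent lost goes from 26.7% to 0.0838%, while lost regions with a CPC peak stay between 45.0% and 48.7% in the first 3 ranges.

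By library, 307 lost regions (32.8%) had a peak in uninduced CPC replicate 1 and 209 (22.4%) in replicate 2, against 216 (23.1%) and 210 (22.5%) in the induced replicates. Replicate 1 without induction stood above the other 3 libraries, which were within 1 percentage point of each other, so the groups overlapped. The mean was 27.6% ± 7.41 (SD, n = 2) without induction and 22.8% ± 0.454 (SD, n = 2) with it, a difference of -4.81 percentage points (two-sided exact permutation test, p = 1, adjusted p = 1 over 7 tests). The difference rests on that 1 library: without it the value was 0.428 points, and without uninduced CPC replicate 2 it was -10.1 points. With any 1 EPC library left out of the rule it was -3.10 to -1.68 points. At kept regions the shares were 86.6% and 81.3% without induction and 88.9% and 88.1% with it, a difference of 4.55 points (exact permutation p = 0.33, the smallest that 2 against 2 libraries can give, adjusted p = 0.467). The share at lost regions minus that at kept regions differed by -9.36 points between induced and uninduced CPC (exact permutation p = 0.33, adjusted p = 0.467), with the same sign when any CPC library was left out. With 2 libraries a group no such comparison can pass 0.05. A peak in uninduced replicate 1 alone was found at 76 lost regions, in either induced replicate alone at 33 each, in uninduced replicate 2 alone at 27, in both uninduced lists alone at 31 and in both induced lists alone at 11.

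**Figure D4:**
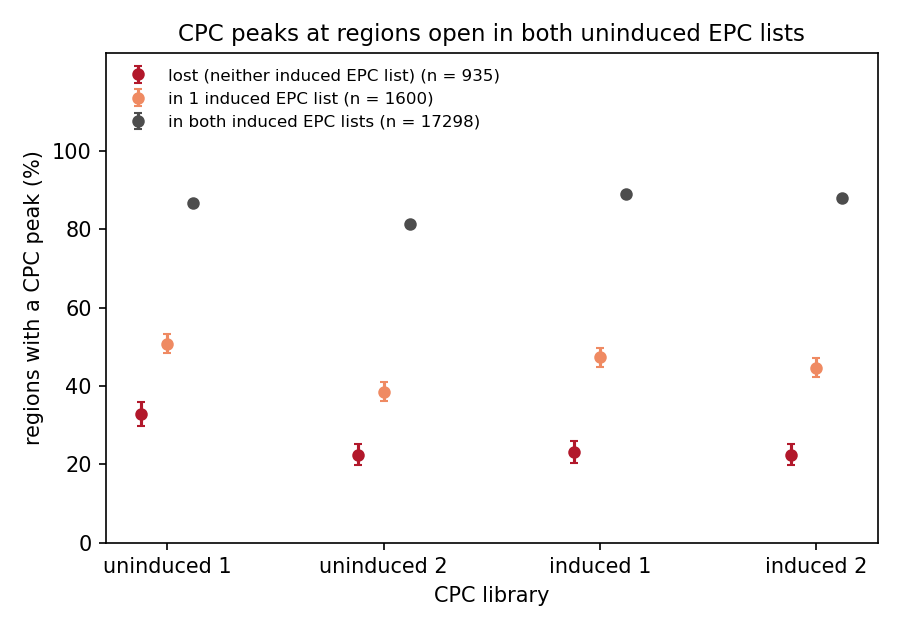
Percent of lost, 1-induced-peak and kept regions with a peak in each of the 4 CPC libraries. Lost regions have 32.8% and 22.4% in uninduced and 23.1% and 22.5% in induced libraries, so the 2 groups overlap.

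Of the 19833 regions open in both uninduced EPC lists, 0.903% were lost and 2.5% gained in CPC by the same rule, and of all regions 1203 (2.35%) were lost and 2946 (5.75%) gained in CPC. Of the lost EPC regions 31 were also lost in CPC, 3.32% of the lost EPC and 2.58% of the lost CPC regions. At matched EPC scores that share was 3.15%, 2.91% and 4.70% in the first 3 ranges, against 3.51%, 3.10% and 2.89% at regions with 1 induced EPC peak and 1.05%, 1.57% and 0.770% at kept regions. Lost regions and those with 1 induced peak thus had shares of loss in CPC that lay close together. The strongest in EPC lay at chr3:115261093-115262174 with no gene within 50 kb, at 135 and 229 in EPC and 62.8 and 68.7 in uninduced CPC. Others were inside Rtn4rl2, a Nogo receptor relative (181 and 106, and 66.7 and 91.7 in uninduced CPC), 14.1 kb from Rhobtb1 (99.8 and 166, and 217 and 60.0), inside Cd1d1, a lipid-presenting molecule (88.8 and 174, and 58.7 and 69.7), and inside Cobll1 (175 and 83.3, and 84.4 and 70.3).

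Going the other way, 11 lost EPC regions were gained in CPC, 1.18% of the lost EPC and 0.373% of the gained CPC regions. Inside Oxr1, an oxidation resistance gene, the region chr15:41611991-41612880 scored 109 and 126 in uninduced EPC and 69.7 and 155 in induced CPC. Inside Tpm2, a tropomyosin gene, the region chr4:43519717-43520610 scored 64.1 and 65.8 in uninduced EPC and 75.9 and 60.8 in induced CPC. The region 29.7 kb from Fam98b had 57.8 and 85.9, and 65.2 and 51.4. Regions with no gene within 50 kb on chromosomes 1 and 10 completed the leading 5.

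Some regions that were weak in EPC and lost there were strong peaks in CPC. Inside Gli2, a transcription factor of Hedgehog signalling, the region chr1:118877542-118879058 scored 94.4 and 59.1 in uninduced EPC. In CPC it scored 931 and 594 without induction and 269 and 167 with it, so that the induced scores were lower in both libraries. Inside Galnt14, a glycosyltransferase gene, the region chr17:73653944-73655012 scored 53.8 and 57.7 in EPC, and in CPC 631 and 307 without induction and 437 and 234 with it, which overlap. A region on chromosome 9, chr9:92805209-92806191, with no gene within 50 kb, scored 66.1 and 53.0 in EPC. In CPC it scored 565 and 355 without induction and 324 and 182 with it, again lower in both. Inside Tmem132c the CPC scores were 482 and 147 against 250 and 377, and 13.9 kb from Ppargc1a, a coactivator of mitochondrial genes, 317 and 179 against 323 and 216, and both pairs overlap.

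Scores depend on the depth of a library, so the 86 lost regions with a peak in all 4 CPC lists were ranked as percentiles within each list. Their median percentile was 53.9 and 46.9 in the uninduced and 36.8 and 32.4 in the induced CPC lists, with median scores of 172, 117, 99.8 and 88.5. Both induced libraries were below both uninduced ones. The mean over libraries was 50.4 ± 4.94 (SD, n = 2) without induction and 34.6 ± 3.12 (SD, n = 2) with it, a difference of -15.8 percentile points (exact permutation p = 0.33, the smallest possible, adjusted p = 0.467). The 13096 regions with a peak in all 8 ATAC lists had medians of 74.4 and 69.3 without induction and 75.9 and 74.9 with it, a difference of 3.58 points (exact permutation p = 0.33, adjusted p = 0.467). The first value was -6.38 and -7.32 when induced EPC replicates 2 and 1 were left out of the rule, -10.01 without uninduced EPC replicate 1, -8.51 without uninduced CPC replicate 1 and -10.3 without induced CPC replicate 2, all below 0. The difference between those differences was -19.4 points (exact permutation p = 0.33, adjusted p = 0.467).

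The ranking was also read region by region. Both induced CPC percentiles were below both uninduced ones at 42 of the 86 (48.8%), where 13.8% of all 16355 regions with a peak in the 4 CPC lists were so placed. Both were above at 6 (6.98%), where the share over all such regions was 29.1%. Regions with 1 induced EPC peak lay between, with 105 of 337 (31.2%) below. At matched EPC scores of 50 to 75, 75 to 100 and 100 to 150 the shares below were 50.0%, 37.9% and 60.0% for lost and 15.6%, 16.0% and 12.9% for kept regions. The median change over regions was -15.1 points for lost, -4.29 for 1-induced-peak and 1.94 for kept regions. The 86 regions share 4 libraries and are not replicates, and the comparison over libraries cannot pass 0.05.

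**Figure D5:**
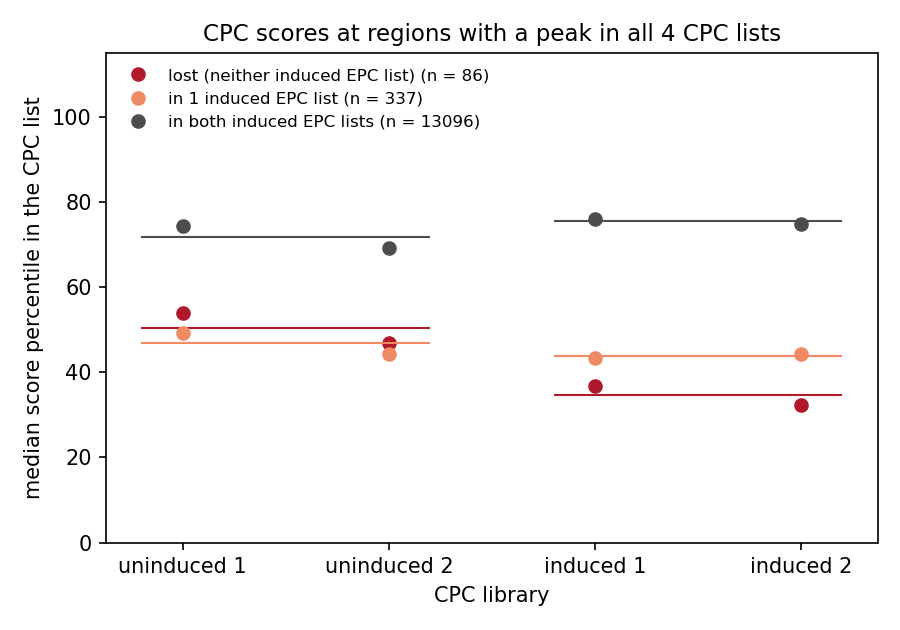
Median percentile of the peak score within each CPC list, for regions with a peak in all 4 CPC lists: 86 lost regions, 337 regions with 1 induced EPC peak and the regions in all 8 ATAC lists. Medians of lost regions are 53.9 and 46.9 without and 36.8 and 32.4 with induction, while those of the regions in all 8 lists are 69.3 to 75.9.

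An anti-Myc ChIP peak in at least 1 list was found at 33 lost regions (3.53%), against 3.50% of regions with 1 induced EPC peak, 6.58% of kept regions and 4.96% of all ATAC regions. Most of the 33 carried it both with and without induction. The uninduced ChIP lists held a peak at 22, 22, 25 and 16 lost regions and the induced lists at 20, 22, 24 and 23, while the input list, which has no antibody, held one at 18. These are 1.71% to 2.67% of lost regions in the uninduced lists, against 1.12% to 1.33% of all ATAC regions, and 2.14% to 2.57% in the induced lists, against 1.60% to 3.98%. For the input list the shares were 1.93% and 1.06%. Uninduced lists 2 and 4 shared 585 of 772 peak starts (75.8%), against 1.04% at most for any other pair,, so their mean entered as a single library. The mean was 22 ± 3 (SD, n = 3) without and 22.25 ± 1.71 (SD, n = 4) with induction, a difference of 0.25 regions (two-sided exact permutation test, p = 1, adjusted p = 1, smallest possible 0.0571). The 2 groups overlapped. Of the 33, 12 had a peak in all 8 ChIP lists. The 18 on an input peak all had a ChIP peak, and 15 had a ChIP peak without an input peak. Peaks in induced lists alone were found at 3 and in uninduced lists alone at 2, and none had 3 or more induced and no uninduced ChIP peaks.

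The regions with ChIP peaks in induced lists alone were the start of Tdo2, a region inside Rtcb, an RNA ligase, and chr2:174022903-174023985 with no gene within 50 kb, each with 1 induced ChIP list, and the regions with uninduced lists alone were at Cd68 and Zfp978, also with 1 list each. In the authors' deposited table of 666 Sox7-bound regions, 1 lost region appeared. It lay 1.06 kb from H3f3b, a replacement histone gene, at chr11:116019344-116020903, scored 159 and 200 in uninduced EPC, had a peak in 1 uninduced and 2 induced ChIP lists, and had no CPC peak. The authors' deposited table of 117 regions shared by Sox7 and Gata4 held none. Their deposited table of 3093 regions open only in induced CPC held 13 of the lost EPC regions, and that of 3267 regions open only in induced EPC held 0, as the rule, which allows no induced EPC peak, leads to. No shares over all ATAC regions were taken for these 4 deposited tables. Whether the counts are high or low therefore cannot be read from them.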

How the data were processed

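The deposited lists, 1 per library, hold peaks with a score given by the authors' peak caller. The build is GRCm38 (mm10), per the submitters' processing notes, which name Trimmomatic, Bowtie2, SAMtools, bedtools and MACS 1.4, with no role or parameters. The lists give no read depth. Scores were used as deposited, or as percentiles within a list, and a region with several peaks took the highest score. Peaks were merged at 1 bp overlap. Gene bodies were those of RefSeq on GRCm38.p6: a region was assigned to each of the 21883 protein-coding genes whose body it overlapped, otherwise to the nearest within 50 kb. Promoter windows were from RefSeq, which held 17491 of these genes. Values per library were compared by two-sided exact permutation tests with Benjamini-Hochberg adjustment over 7 tests. Shares of regions have exact 95% intervals. Named regions were the 10 of highest mean percentile, genes with 3 or more, members of 15 gene lists, those on ChIP, input or authors' regions, the 10 strongest at gene starts, the 5 strongest in CPC, the 5 strongest also lost or gained in CPC and 3 on each side of the rule. The regions and gene lists were chosen with earlier results of these data known. The merging was tested on simulated lists. Python 3.11.15, numpy 2.4.6, pandas 2.3.3 and scipy 1.17.1 were used. The 4 RNA-seq samples were not analysed here.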

Additional observations from a re-analysis of the deposited data

How the results depend on the processing

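The number of lost regions was 419 when only peaks of score 100 or more were used, 69 when such peaks were needed for presence and any peak at all counted against absence, and 1638 to 4048 when 1 of the 4 EPC libraries was left out (4048 without uninduced replicate 2, 2371 without uninduced replicate 1, 1638 and 1836 without induced replicates 1 and 2). Each left-out EPC library drops 1 condition of the rule, so those last counts are higher by construction. Lists cut to the length of the shortest gave 1303, a 100 bp overlap 936 and joining across gaps of 500 bp 899. The share with a CPC peak was 37.5% at score 100 or more, a cut that also removes weaker CPC peaks. It was 36.1% to 57.3% with 1 EPC library left out and 38.1% to 43.3% with 1 CPC library left out. Leaving out a CPC list can only lower a share with at least 1 CPC peak. The induced minus uninduced CPC share ran from -10.1 to 0.428 points over the left-out libraries, and the 1 opposite sign came without uninduced CPC replicate 1. With the replicate number as a block it was -4.81 (exact permutation p = 1), from -9.73 points in replicate 1 and 0.107 in replicate 2. With 2 libraries a group no call could have changed, so the block is no check of the result. Across regions the replicate differences of uninduced and induced libraries had a correlation of 0.0039 in CPC and 0.0090 in EPC. The ChIP difference was -0.25 at ChIP scores of 100 or more, -0.667 without regions on input peaks, an alternative chosen after seeing the data, and -0.75 to 1.75 with 1 ChIP library left out (-0.75 without uninduced list 4, -0.333 without induced list 3). The CPC percentile difference, like the AP-1 share and the CPC share set against kept regions, was varied in ways chosen after seeing the data, and it kept its sign in 10 of 10 alternatives, from -18.3 to -6.38 with 1 library left out. Those alternatives share regions and libraries, so they are not independent checks. The AP-1 share was 7.98% to 10.4% with 1 EPC library left out, lowest without uninduced EPC replicate 2, 4.76% at score 100 or more and 16.7% with overlapping windows counted once. Causes were not tested. Without read counts, a weak peak under the caller's threshold and a closed site cannot be told apart.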

Other observations

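Lost regions were spread over all chromosomes, from 1.18% of the ATAC regions of chromosome 19 to 2.38% of those of chromosome 5. No lost region overlapped any of 1005 miRNA hairpins, and 4 lay within 1 kb of one. Proximity to genes differed with presence in CPC: a gene boundary lay within 1 kb of 6.96% of the lost regions with no CPC peak (35 regions), and of 16.0%, 18.6%, 13.3% and 11.6% of those with a peak in 1, 2, 3 and 4 CPC lists. These shares are a description, with no test.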
